A study of Rattus norvegicus with 4 samples.

Results

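Small nucleolar RNA (snoRNA) host genes were followed in cultured cortical astrocytes of newborn Wistar rats, as 15 transcript rows out of 20524 in the long noncoding RNA (lncRNA) tables. The rows were chosen by name: Gas5, RGD1563912 (the former name of Snhg11), any name beginning with Snhg, or a RefSeq noncoding entry of one of these genes. They comprise 11 rows of Gas5, 3 of RGD1563912 and 1 of Snhg8. The astrocytes grew on coverslips above neurons, held apart from them by paraffin dots in a shared medium. Of the 4 libraries, 2 are from untreated control cells. The other 2 are from cells preconditioned by oxygen and glucose deprivation (OGD), 45 min in medium without glucose under 1% oxygen, followed by 24 h of normal medium and normoxia. Nothing in the labels assigns the replicates to separate cultures. The p-values therefore measure only how far these libraries spread, and that spread may be technical.

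The rows were compared to ask whether host gene transcripts differ between preconditioned and untreated astrocytes. A snoRNA host gene carries snoRNAs in its introns. The snoRNAs are freed from the excised introns and guide the chemical modification of ribosomal RNA, while the spliced exons leave as a separate RNA. Gas5, named for its rise in growth-arrested cells, gives a spliced RNA that begins with a terminal oligopyrimidine tract. That RNA is bound by ribosomes and destroyed by nonsense-mediated decay, and it can bind the glucocorticoid receptor. Snhg11 hosts box H/ACA snoRNAs, which guide pseudouridine formation, and is known for its expression in neurons.

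In the RefSeq gene table of assembly GRCr8, used here for names and gene order, 9 snoRNA genes lie inside Gas5. Snord78 and Snord81 are among them, and the other 7 have LOC numbers. Snora71e and Snora60 lie inside Snhg11. The table gives Snhg8 only as another name of Uqcc5, a protein-coding gene of mitochondrial complex assembly, and lists 0 snoRNA genes inside it. Nt5dc2 neighbours Uqcc5 in that gene order and is also the next listed locus after the Snhg8 row in the tables. The row named Snhg8 may therefore be a transcript of a gene that hosts no snoRNA.

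The promoters of the 3 genes are shown because the 3 genes differ widely in level and the cells had been hypoxic. RefSeq sequences on GRCr8 were found for all 3. Those of Gas5 (chr13:75836713-75837012, plus strand) and Snhg11 (chr3:167451022-167451321, plus strand) run from 250 bases before the annotated start to 50 after it. That of Uqcc5 (chr16:6326912-6327161, minus strand) holds the 250 bases before the start. Capitals mark matches, on either strand, to 7 short motifs. The cAMP response element was searched as TGACGTCA, and the core of hypoxia response elements as ACGTG or as GCGTG. The E-box was spelled CACGTG and the GC box GGGCGG. The TATA box was searched in 2 spellings, as TATAAA and also as TATATA. The E-box contains the first hypoxia core, and adjoining matches run together.
Gas5: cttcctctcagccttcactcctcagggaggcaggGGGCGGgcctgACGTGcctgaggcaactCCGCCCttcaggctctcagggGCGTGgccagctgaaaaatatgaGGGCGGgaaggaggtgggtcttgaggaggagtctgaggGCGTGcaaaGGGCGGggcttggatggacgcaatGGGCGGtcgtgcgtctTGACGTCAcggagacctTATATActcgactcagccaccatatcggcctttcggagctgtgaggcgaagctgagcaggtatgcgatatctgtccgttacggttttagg
Snhg11: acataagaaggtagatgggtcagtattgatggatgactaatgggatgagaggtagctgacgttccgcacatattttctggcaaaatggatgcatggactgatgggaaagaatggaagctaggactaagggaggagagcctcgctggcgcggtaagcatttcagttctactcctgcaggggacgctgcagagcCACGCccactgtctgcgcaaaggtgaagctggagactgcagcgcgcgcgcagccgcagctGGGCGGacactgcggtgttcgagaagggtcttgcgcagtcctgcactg
Uqcc5: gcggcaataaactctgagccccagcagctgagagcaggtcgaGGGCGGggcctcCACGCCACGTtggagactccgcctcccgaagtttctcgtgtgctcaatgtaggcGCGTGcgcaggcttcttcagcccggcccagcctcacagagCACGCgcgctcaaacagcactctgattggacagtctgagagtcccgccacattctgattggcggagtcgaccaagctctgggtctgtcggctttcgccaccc

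The Gas5 promoter held 1 match to TGACGTCA, a motif found in 1.83% of 33469 rat promoters of 300 bases, and 1 match to TATATA, found in 6.15%. It also held 5 matches to GGGCGG, a motif that 33.1% of promoters have at least once. G and C made up 60.3% of the 300 bases at Gas5, 56.0% at Snhg11 and 62.7% at Uqcc5. The median over all promoters was 51.7%. The Snhg11 promoter had 1 match to GGGCGG and 1 to GCGTG. The Uqcc5 promoter, searched like the others over 300 bases, had 1 match to GGGCGG, 1 to ACGTG and 3 to GCGTG, and Gas5 had 1 and 2 of the hypoxia cores in the same order. ACGTG is present in 19.3% and GCGTG in 29.7% of promoters. The matches to CACGTG and TATAAA numbered 0 in all 3. These matches describe letters in a window and were not tied to any measurement of binding.

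Gas5 was by far the most abundant of the 3, and its level did not differ between preconditioned and control astrocytes beyond the spread of the libraries. Summed over its 11 rows (chromosome 13, 78852519 to 78856208 in the tables' coordinates), it had 1072 and 806 counts in control replicates 1 and 2. After OGD it had 819 and 911. Control replicate 1 and OGD replicate 2 were the high libraries, and the groups overlapped. In CPM, counts divided by the lncRNA total of the library as scaled by edgeR's TMM factors, Gas5 measured 356 ± 48.8 in control and 344 ± 50.5 after OGD (SD, n = 2 per group). It ranked 422nd by mean CPM among 9579 loci with enough counts to be tested. The difference between the controls exceeded counting error, with exact 95% Poisson intervals of 367 to 414 and 299 to 344 CPM. These are whole-culture RNA measurements, in which fewer cells of a type and less RNA per cell cannot be told apart.

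By edgeR's quasi-likelihood test the log2 fold change of Gas5 after OGD was -0.05 (SE 0.21, unadjusted p = 0.831, Benjamini-Hochberg adjusted p = 1.00). Its approximate 95% interval ran from -0.59 to 0.50, that is from 0.663-fold to 1.41-fold, so smaller changes than these could not be seen. Of the 3 summed genes, 0 passed the adjusted threshold of 0.05 in edgeR, where 0.0835% of all loci did, and 0 had an unadjusted p under 0.05, where 2.34% did. DESeq2 gave an adjusted p to Gas5 and Snhg8 and called neither, against 0.396% of loci, and edgeR with a block for replicate number called 0 of 3, against 0.23%.

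**Figure D1:**
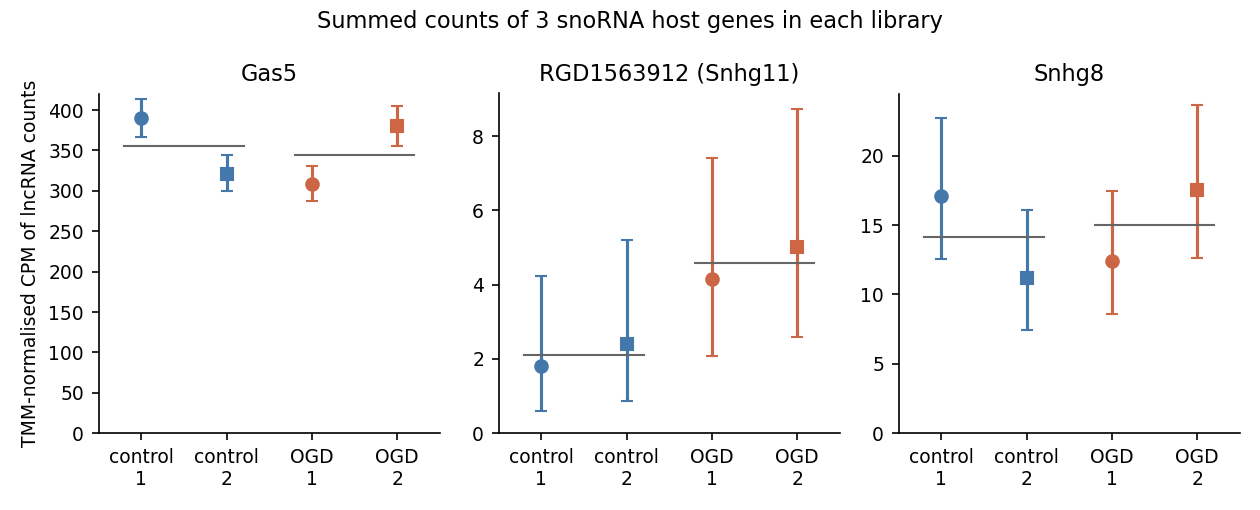
TMM-normalised CPM of the summed counts (y axis, from 0) of Gas5, RGD1563912 and Snhg8 in each of the 4 libraries (x axis). Error bars are exact 95% Poisson intervals of counting error and grey lines are group means; Gas5 and Snhg8 overlap between groups, while both OGD points of RGD1563912 (4.14 and 5.00 CPM) lie above both control points (1.82 and 2.39 CPM).

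The 11 Gas5 rows differ in how much of the gene they keep. Gas5.a, the longest, covers 2549 of the 3326 bases it spans, so that most intron sequence is retained in it. The RefSeq entry NR_002704 spans 3322 bases, of which 429 are exonic, and it is the most abundant of the spliced rows with little intron sequence. Gas5.c is an unspliced row of 1034 bases that starts inside the gene and runs past the end of the others, to position 78856208. Of the remaining 8 rows, 6 start at position 78853132 and end between 78855837 and 78855851, with exonic lengths of 412 to 1132 bases. Gas5.f starts at the same base and ends at 78854210, and Gas5.i starts at 78853861. The rows overlap, and the sources used here do not give the program that counted the reads or how it divided reads between overlapping rows. Counts of single rows depend on that division.

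Row by row, Gas5.a had 613 and 436 counts in control against 507 and 497 after OGD. Control replicate 1 was highest and control replicate 2 lowest, so the OGD libraries lay between the controls. The log2 fold change was 0.00095 (SE 0.21), with a 95% interval of -0.57 to 0.58. The spliced row NR_002704 had 159 and 151 counts in control against 95 and 124 after OGD. Both OGD libraries were below both controls. The log2 fold change was -0.44 (SE 0.27, unadjusted p = 0.179, adjusted p = 1.00 in edgeR), with an interval of -1.17 to 0.30. It was -0.18 without OGD replicate 1 and -0.72 without OGD replicate 2. Gas5.c had 146 and 119 counts in control against 123 and 175 after OGD, with OGD replicate 2 standing above the rest, and a log2 fold change of 0.24 (SE 0.30).

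Among the shorter-spanning rows, Gas5.e had 36 and 41 counts in control against 15 and 25 after OGD. The groups did not overlap, and the log2 fold change was -0.88 (SE 0.43, unadjusted p = 0.103, adjusted p = 1.00 in edgeR). That value was -0.48 without OGD replicate 1 and -1.37 without OGD replicate 2. Gas5.b had 61 counts in control replicate 1 and 21, 29 and 18 in control replicate 2 and the OGD libraries. Only that 1 control library was high, and its log2 fold change of -0.73 (SE 0.58) became 0.14 without it. Gas5.d (10 and 15 counts, then 13 and 15) and Gas5.f (20 and 15, then 10 and 20) overlapped between groups.

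Gas5.j and Gas5.g were each high in 1 OGD library and at 0 in the other. Gas5.j had 10 and 1 counts in control against 0 and 27 after OGD, so that the 2 OGD libraries were the lowest and the highest. Gas5.g had 0 and 3 counts in control against 17 and 0 after OGD, nearly all in OGD replicate 1. Gas5.h had 9 and 3, then 2 and 0, and Gas5.i had 8 and 1, then 8 and 10. In CPM both OGD libraries were lower than the controls for Gas5.h and higher for Gas5.i, on at most 10 counts in a library. A count of 0 allows up to 3 counts, or 0.280% to 0.366% of the Gas5 counts of those libraries. Gas5.g, Gas5.h and Gas5.i had too few counts to be tested, as had RGD1563912.c and RGD1563912.d.

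**Figure D2:**
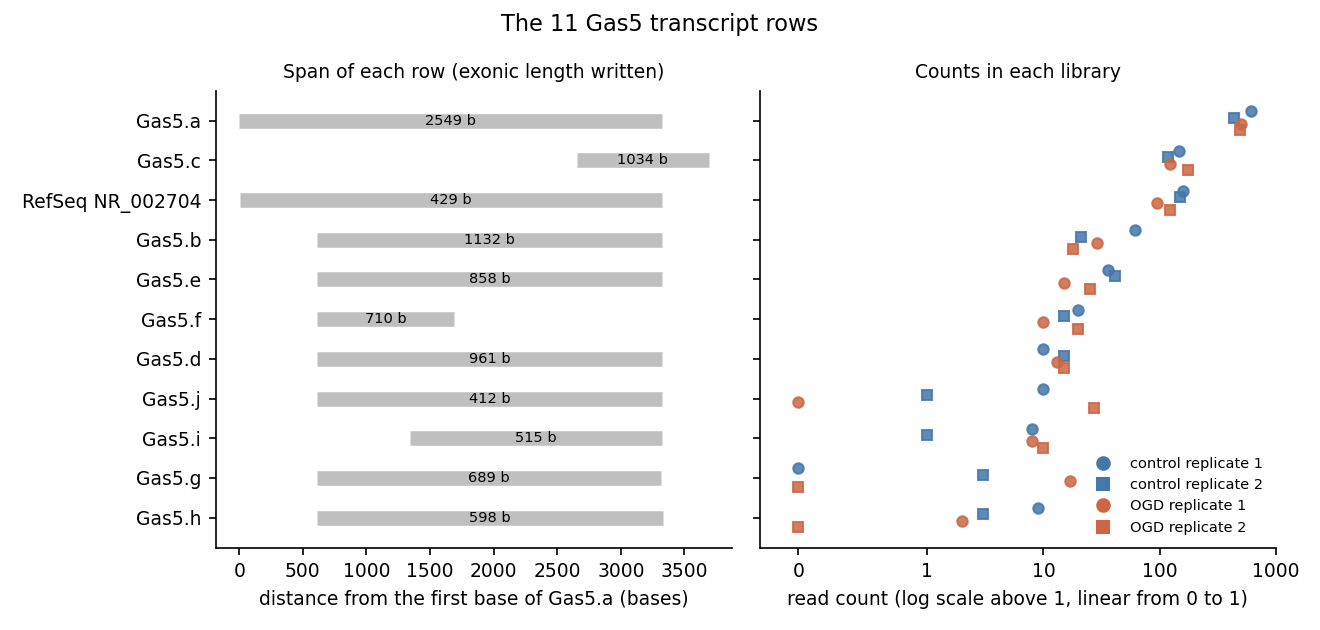
Left, the span of each of the 11 Gas5 rows, in bases from the first base of Gas5.a, with the exonic length written on the bar. Right, read counts of the same rows in each library (log axis above 1), ordered from the most to the least abundant; Gas5.a leads in all 4 libraries at 436 to 613 counts, and rows such as Gas5.j spread from 0 to 27.

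Of the 10 member rows tested, 0 passed the adjusted threshold in edgeR, where 0.00918% of 10892 rows did, and DESeq2 called 0 of the 10, against 0.605% of rows. Only RGD1563912.a had an unadjusted p under 0.05 in edgeR, as had 2.68% of all rows. That row had enough counts for the test only in the OGD libraries, where it was higher. The groups did not overlap at 3 of the 10 rows, 2 lower after OGD (NR_002704 and Gas5.e) and 1 higher (RGD1563912.a). Over all tested rows that share was 28.4% (14.1% lower and 14.2% higher), so 3 of 10 is close to the background. Of the 8 Gas5 rows tested, 4 had a log2 fold change below 0 and 4 above 0.

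**Figure D3:**
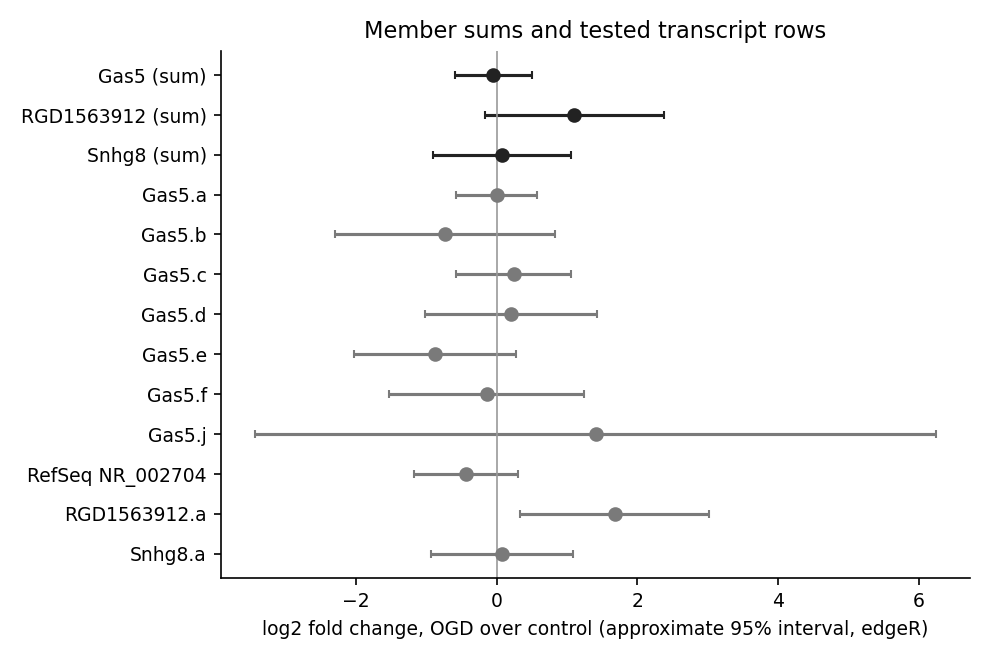
Log2 fold change, OGD over control, by edgeR's quasi-likelihood test (x axis) for the 3 summed genes (black) and the 10 tested rows (grey), with approximate 95% intervals. All intervals include 0 but that of RGD1563912.a, which runs from 0.33 to 3.02 without adjustment, and Gas5.j has the widest, from -3.43 to 6.24. RGD1563912.a and the RGD1563912 sum had enough counts for the test only in the OGD libraries.

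How the counts of Gas5 were divided among its rows was described as shares within each library, which do not depend on the scaling between libraries. Gas5.a held 57.2% and 54.1% of Gas5 counts in control against 61.9% and 54.6% after OGD. NR_002704 held 14.8% and 18.7% in control against 11.6% and 13.6% after OGD. NR_002704 thus took a smaller share in both OGD libraries than in either control, 16.8% ± 2.76 against 12.6% ± 1.42 (SD, n = 2). The difference of -4.18 percentage points was -2.23 without control replicate 2 and -6.13 without control replicate 1. The 8 rows beside Gas5.a, NR_002704 and Gas5.c held together 14.4% and 12.4%, then 11.5% and 12.6%. For NR_002704 the nearest libraries of the 2 groups were control replicate 1 and OGD replicate 2. Their exact 95% binomial intervals for NR_002704, 12.8% to 17.1% and 11.5% to 16.01%, overlapped. Gas5.c held 13.6% and 14.8%, then 15.0% and 19.2%. NR_002704 was not the only row whose groups did not overlap in share. Gas5.c and Gas5.i were higher in both OGD libraries, and Gas5.e and Gas5.h were lower. The shares of a gene's rows add up to the whole, so these rows are not independent. Gas5.h and Gas5.i rest on at most 10 counts in a library. How often shares part in this way at other genes was not computed, so no shift in the use of rows can be read from it. Gas5.e held 3.36% and 5.09% in control against 1.83% and 2.74% after OGD. With 2 libraries against 2, an exact two-sided permutation test cannot give a p below 0.333, so these shares were not tested.

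The same division can be read as a ratio of NR_002704 to the intron-retaining row Gas5.a. For every 100 counts of Gas5.a there were 25.9 and 34.6 counts of NR_002704 in control against 18.7 and 24.9 after OGD. Control replicate 1 and OGD replicate 2 again lay next to each other. Per kilobase, the order of the 2 rows turned: the FPKM of NR_002704 was 14.9 and 13.3 in control against 8.88 and 11.6 after OGD. That of Gas5.a was 9.64 and 6.49, then 7.98 and 7.79. NR_002704 was therefore the row with the highest FPKM in each library, 1.54 and 2.06 times Gas5.a in control and 1.11 and 1.48 times after OGD. In shares of summed Gas5 FPKM, NR_002704 measured 43.0% ± 5.14 in control and 34.4% ± 0.75 after OGD (SD, n = 2).

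**Figure D4:**
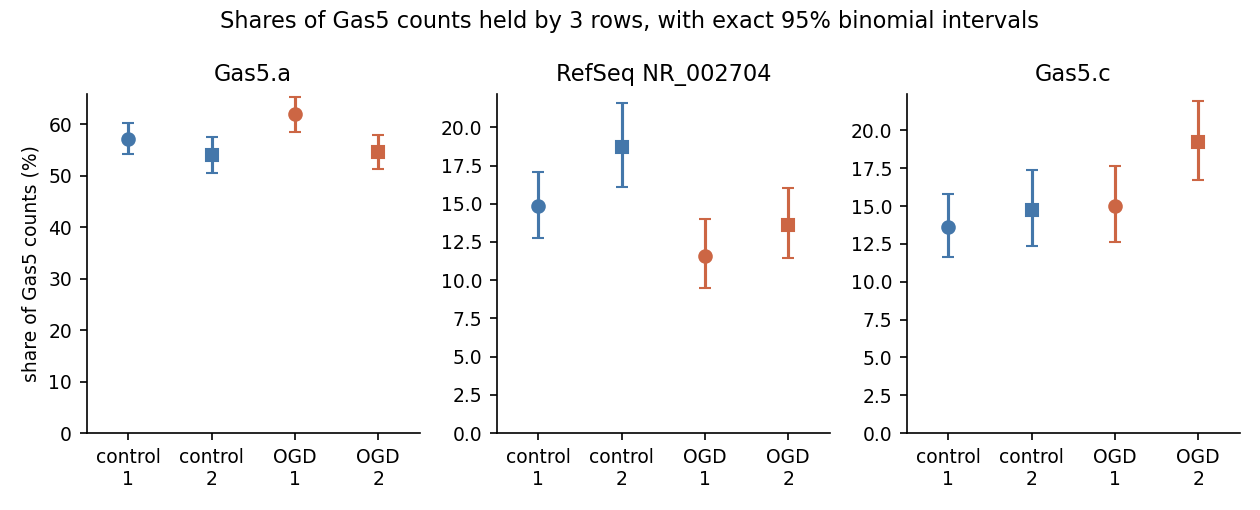
Share of Gas5 counts (y axis, percent, from 0) held by Gas5.a, NR_002704 and Gas5.c in each library, with exact 95% binomial intervals of counting error. NR_002704 lies at 14.8% and 18.7% in control and at 11.6% and 13.6% after OGD, and the intervals of control replicate 1 and OGD replicate 2 overlap.

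RGD1563912, now Snhg11 (chromosome 3, 154863062 to 154870101), was near the detection limit and was higher in both OGD libraries. Its 3 rows summed to 5 and 6 counts in control against 11 and 12 after OGD, or 2.11 ± 0.404 and 4.57 ± 0.609 CPM (SD, n = 2). The groups did not overlap, which was also so at 28.0% of tested loci, 14.0% lower and 14.0% higher. The log2 fold change was 1.10 (SE 0.49, unadjusted p = 0.0762, adjusted p = 1.00 in edgeR), with an interval of -0.17 to 2.38. DESeq2 gave the sum an unadjusted p of 0.325. Only the OGD libraries of RGD1563912 held enough counts for the test. The values therefore belong to a locus that was tested through the group where it was higher. Summed counts, scaled by library totals with their TMM factors, had a ratio of 2.18, with an exact 95% counting interval of 1.02 to 4.94.

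The difference sat in 1 row. RGD1563912.a, which spans the gene with 1129 exonic bases, had 4 and 3 counts in control against 11 and 11 after OGD. Its log2 fold change was 1.67 (SE 0.50, unadjusted p = 0.025, adjusted p = 1.00 in edgeR). DESeq2 gave this row an unadjusted p of 0.148. The ratio of summed counts, scaled in the same way, was 3.26 with a counting interval of 1.35 to 9.04. Such intervals leave out the spread between libraries. They excluded 1 also for NR_002704 (0.614 to 0.874), Gas5.b, Gas5.e and Gas5.h, with lower ratios, and for Gas5.g and Gas5.j, with higher ratios. Gas5.j, at 1.22 to 5.69, had 0 and 27 counts in the OGD libraries. This row too had enough counts for the test only in the OGD libraries. RGD1563912.c had 1 and 1 counts in control against 0 and 1 after OGD. RGD1563912.d, the least spliced of the 3, had 0 and 2, then 0 and 0. Both were at or below the floor of 3 counts in every library and have no fold.

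Because Snhg11 is known from neurons and the astrocytes were cultured above neurons, loci named after neuron markers are given beside it. Of 12 such genes 6 had a locus in the tables, among them RGD1560070, and 0 of these were at 0 counts throughout. Their CPM summed to 90.6 and 120 in the controls and to 111 and 121 in the OGD libraries, which overlap. At Syn1, the gene of synapsin, the controls had 2 and 1 counts and the OGD libraries 98 and 45, a difference with an adjusted p of 0.185 in edgeR and 8.62e-05 in DESeq2. Syn1 had enough counts for the edgeR test only in the OGD libraries. Gria2, a glutamate receptor gene, had 223 and 275 counts, then 187 and 222. RGD1560070 had 19 and 20, then 6 and 19, and Syt1 had 2 and 4, then 1 and 1. Gad2 and Nefl had at most 2 counts in a library. All of these are listed noncoding transcripts at the named genes. Map2, Tubb3 and Snap25 had no locus. The part of neuronal RNA in the RGD1563912 counts was not tested.

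Snhg8, the single row at Uqcc5 (chromosome 16, 7206634 to 7210522, 445 exonic bases of 3889), had 47 and 28 counts in control against 33 and 42 after OGD. In CPM, OGD replicate 2 (17.5) and control replicate 1 (17.1) were high, and the groups overlapped. It measured 14.1 ± 4.21 CPM in the controls against 15.0 ± 3.60 CPM after OGD (SD, n = 2). The log2 fold change was 0.08 (SE 0.38, adjusted p = 1.00 in edgeR), with an interval of -0.90 to 1.06, so that changes up to about 2.09-fold higher or 0.535-fold were within the error. If reads of the Uqcc5 messenger RNA were counted in this row, they cannot be told apart from it.

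Per kilobase, the 3 genes kept the same order in every library. Gas5 summed to 37.7 and 28.6 FPKM in control against 26.2 and 33.1 after OGD. Snhg8 measured 4.23 and 2.39, then 2.97 and 3.77 FPKM. RGD1563912 measured 0.263 and 0.317, then 0.391 and 0.510 FPKM. Gas5 was 8.76 to 11.998 times Snhg8, and Snhg8 was 7.40 to 16.1 times RGD1563912, so no neighbours in this order overlapped in any library. Together the 15 rows held 0.0319% to 0.0431% of lncRNA counts.

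Gas5 and Snhg8 shared the same order of libraries in part, with control replicate 1 and OGD replicate 2 the 2 highest for both. By root mean square difference of centred log2 CPM over the 4 libraries, the loci most like Gas5 among 1161 with a gene symbol and at least 20 CPM were Cltc (0.033), Hsbp1 (0.039) and RGD1562582, now Tti1 (0.043). Cltc measured 45.1 and 37.1 CPM in control and 34.3 and 41.7 CPM after OGD. With 4 libraries such a likeness is easily met and is given as a description.

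No listed row of another locus overlapped a member gene in the tables. The locus jeela, 29917 bases before Gas5, had 206 and 189 counts in control against 215 and 175 after OGD. The locus tasho starts 923 bases after RGD1563912 and had 2 and 15 counts in control against 13 and 20 after OGD. Control replicate 1 alone was low there, unlike RGD1563912, whose controls were alike. The listed loci nearest to Snhg8 were Gnl3, a nucleolar GTPase gene 103109 bases before it with 193 and 265 counts, then 202 and 221, and Nt5dc2, 1685 bases after it with 1 and 3, then 4 and 3.

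Other lncRNA host genes were looked for by a list of 22 names, and the members are the only ones found. The 18 names without a locus include Snhg1, Snhg12, Zfas1 and Dancr, which are not analysed here. Many snoRNAs sit in protein-coding genes, among them genes of ribosomal proteins and translation factors. Loci that carry such names are listed noncoding transcripts at those genes, and reads of the messenger RNA could be among their counts. Of 38 listed protein-coding host names, 22 had a locus. Gnb2l1 and Rack1 are names of the same gene, so these are 21 loci, of which 17 were tested.

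By edgeR 0 of the 17 passed and 0 had an unadjusted p under 0.05, and DESeq2 called 0. Log2 fold changes ran from -0.50 to 0.68 with a median of 0.18, where the median of all tested loci was -0.0016. A value above 0 was found at 11 and below 0 at 6, where all tested loci had 4764 above and 4815 below. The groups did not overlap at 6, of which 5 were higher after OGD and 1 lower. Over all tested loci that share was 28.0%, with 14.0% higher and 14.0% lower. Rpsa, the laminin receptor ribosomal protein, measured 147 ± 0.541 and 156 ± 17.1 CPM, and Rpl30 131 ± 9.09 and 123 ± 11.03 CPM (SD, n = 2). Josd3, now Taf1d and a subunit of an RNA polymerase I factor, had 341 and 330 counts in control against 418 and 390 after OGD. Its log2 fold change was 0.32 (SE 0.18, unadjusted p = 0.131 in edgeR).

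The genes of proteins that assemble snoRNAs into particles were represented by 2 tested loci of 17 listed names. In this list and those that follow, the loci are again listed noncoding transcripts at the named genes. Reads of the messenger RNA could be among their counts. Nol5, now Nop58 of the box C/D core, measured 25.9 ± 0.582 CPM in the controls against 23.0 ± 5.345 CPM after OGD. Nola1, now Gar1 of the box H/ACA core, had 9 and 5 counts in control against 12 and 15 after OGD, with a log2 fold change of 1.01 (SE 0.51, unadjusted p = 0.106 in edgeR). The groups of Nola1 did not overlap, as at 28.0% of all tested loci, and only its OGD libraries had enough counts for the test. Nonsense-mediated decay factors had 4 tested loci of 16 names, with a median log2 fold change of 0.12. Casc3, an exon junction complex gene, had 36 and 35 counts, then 48 and 41. RGD1309888, now Smg9, measured 17.4 ± 2.65 and 19.7 ± 3.06 CPM and Pnrc2 4.19 ± 0.268 and 4.39 ± 0.875 CPM (SD, n = 2).

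Genes of mTOR signalling, which governs translation of terminal oligopyrimidine RNAs, had 5 tested loci of 16 names and a median log2 fold change of -0.15. These too are noncoding transcripts at the named genes. Larp1, which binds such tracts, measured 160 ± 25.6 CPM in the controls against 152 ± 17.9 CPM after OGD, and Tsc2, an inhibitor of the pathway, 17.3 ± 1.32 and 15.6 ± 0.837 CPM (SD, n = 2). Eif4ebp1, a translation repressor gene, had 33 and 51 counts, then 16 and 41. Akt1s1 had 66 and 1 counts in control against 71 and 75 after OGD, so that control replicate 2 alone was low. The list of glucocorticoid receptor genes and targets had 4 tested loci of 13 names and a median of 0.15. Nr3c1, the glucocorticoid receptor gene itself, had no locus, and neither had Fkbp5, Tsc22d3, Per1 and Dusp1. Sgk1, a glucocorticoid-induced kinase gene, had 59 and 62 counts in control against 109 and 72 after OGD, with a log2 fold change of 0.62 (SE 0.28, unadjusted p = 0.0801, adjusted p = 1.00 in edgeR). Nr3c2, the mineralocorticoid receptor gene, measured 109 ± 17.2 and 108 ± 4.53 CPM, Hsp90ab1 41.5 ± 1.04 and 46.8 ± 2.81 CPM, and Klf9 5.95 ± 1.73 and 6.48 ± 1.49 CPM (SD, n = 2). In these 4 lists edgeR and DESeq2 called 0 loci, and 0 had an unadjusted p under 0.05 in edgeR.

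The tables held 2513804 to 2646300 lncRNA counts per library. Of 10 astrocyte marker genes 4 had a locus, summing to 34.3 to 50.9 CPM in control and 30.9 to 64.4 CPM after OGD, led by Gfap, whereas Aqp4, Aldh1l1 and S100b had none. Fibroblast and meningeal names, 2 of 6 with a locus, summed to 160 to 344 and 184 to 325 CPM. Microglia and macrophage names, 3 of 8, summed to 28.4 to 43.4 and 10.9 to 35.9 CPM. Oligodendrocyte lineage names, 3 of 8, summed to 8.01 to 17.1 and 7.91 to 10.0 CPM. Endothelial and mural names, 2 of 8, summed to 3.64 to 7.57 and 25.0 to 32.0 CPM, through Abcc9. Abcc9 had 6 and 17 counts in control against 85 and 54 after OGD, and Pecam1 had 4 and 2, then 0 and 6. Ependymal names had 0 loci. These are noncoding transcripts at marker genes, and their part in the values of Gas5 and Snhg8 was not tested.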

How the data were processed

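The authors deposited 1 table per library with whole-number read counts and FPKM (fragments scaled by transcript length and library size) for the same 20524 transcripts, per the file headers. Alignment and assembly tools, HISAT2 and StringTie, appear in the submitters' processing notes with no version. The notes also give the mouse build mm9, although the tables list 20 autosomes and rat identifiers. Positions are therefore printed without a build. How reads were counted, and whether by strand, is not given in the sources used here. Transcript lengths are other values of the deposited tables.

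The members and gene lists were chosen with earlier results of these data known. All members, the 4 most abundant tested loci of each pathway list and the 3 loci most like Gas5 are named, apart from some loci that are not reported here.

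Rows were summed by name and chromosome to 17283 loci, NR_002704 joining Gas5. Loci, and rows separately, were tested on group alone with edgeR 4.0.16 (filterByExpr, TMM, quasi-likelihood F test) in R 4.3.3, with Benjamini-Hochberg adjustment over 9579 loci or 10892 rows and a threshold of 0.05. Each standard error was taken from the F statistic and the log2 fold change. Steps were tested on simulated counts. Alternatives used DESeq2 1.42.0, limma 3.58.1 on log2(FPKM + 0.1) and log2(FPKM + 1), other scalings and filters, a block for replicate number, and fits with 1 library left out. Binomial and Poisson intervals and the floor of 3 counts cover counting error only. Figures were drawn with matplotlib 3.10.9.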

Additional observations from a re-analysis of the deposited data

How the results depend on the processing

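Of the 3 summed genes and the 10 tested rows, 0 passed the adjusted threshold under any alternative; the smallest adjusted p was 0.872 for sums and 0.901 for rows. RGD1563912 lay between 0.93 and 1.31 on the log2 scale with a library left out and between 0.17 and 1.11 otherwise. It was lowest in limma on log2(FPKM + 1), where the pseudocount exceeds its level. Its row RGD1563912.a lay between 1.56 and 1.83 with a library left out. For both, each OGD library was above each control, so leaving a library out could hardly turn the direction. Several directions of overlapping sums and rows turned. With a library left out, Gas5 lay between -0.20 and 0.11, Snhg8 between -0.19 and 0.43 (its row Snhg8.a between -0.19 and 0.43), Gas5.a between -0.16 and 0.20, Gas5.b between -1.26 and 0.14, Gas5.c between -0.12 and 0.55, Gas5.d between -0.10 and 0.61 and Gas5.f between -0.81 and 0.34; the lone library was assumed to vary like the other group. Gas5 was at 0.018 without the RefSeq row, an alternative chosen after seeing the data. Gas5.a was at -0.0040 with DESeq2, -0.0010 with DESeq2 size factors, -0.042 with library totals alone and -0.032 with totals implied by FPKM. The cause was not tested. With a library left out, NR_002704 (-0.72 to -0.18) and Gas5.e (-1.37 to -0.48) lay below 0 and Gas5.j (0.61 to 3.65) above it. The groups of NR_002704 and Gas5.e did not overlap, so leaving a library out could hardly turn these 2 rows either. Without OGD replicate 2, Gas5.j had too few counts to be tested. For NR_002704 the difference in its share of Gas5, OGD minus control, was -4.18 percentage points in counts (-6.13 to -2.23 with a library left out) and -8.58 in FPKM. With the replicate number as a block, Gas5 was at -0.05, RGD1563912 at 1.11 and Snhg8 at 0.09; the block moved the loci called from 8 to 22 and changed no call of a member. No label ties equal numbers to a shared culture or day. With 2 pairs, the deviations of libraries with equal numbers correlated at 0.304 across loci. Over all loci, DESeq2 called 38, edgeR without a filter on low counts 0 (403 at an unadjusted p under 0.05), and 0 to 12 passed with a library left out. At 11 to 12 counts or fewer per library, RGD1563912 is limited by depth.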
